A study of Homo sapiens with 3 samples.

Results

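The comparison of estradiol with its vehicle after 3 h in MDA-MB-231 cells rests on 2 of the 3 arrays measured. MDA-MB-231 is an established human breast cancer line of mesenchymal character, usually classed as lacking the oestrogen receptor alpha. All cells spent the first 4 h in 10% charcoal-stripped serum, from which steroids have largely been removed. The vehicle cells then received 0.1% ethanol for 3 h and the estradiol cells 1 µM estradiol for 3 h. The remaining array is of cells treated with ERα17p, a peptide taken from that receptor, at 1 µM for 3 h, and its values are shown only beside those of the pair. Each group is 1 array of 1 cell line, so there is no replicate, no error and no test, and every value describes these arrays. The difference between the estradiol and the vehicle array was taken for each probe set that the array's annotation pairs with exactly 1 gene symbol. A gene's value is the median over its probe sets. This gave 19775 genes, of which 10523 had 2 or more probe sets and 9252 had 1.

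Estradiol is the main oestrogen of the premenopausal ovary. It binds the nuclear receptors ERα and ERβ, which act at oestrogen response elements in DNA or through other transcription factors, and it is also reported to bind GPER1, a membrane receptor that releases EGF receptor ligands and activates MAP kinases. In breast cells that hold ERα it drives proliferation. In lines such as MDA-MB-231, rapid responses through GPER1 and other membrane-linked routes have been the subject of much work, and the series title names early gene expression as its topic.

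All values are taken to be on the log2 scale, because the processing named for them gives it, and had been centred, gene by gene, on a reference level that the sources used here do not describe. A value of 0 is that reference, a value of 1 is 2-fold above it, and the expression level itself is unknown. For that reason the labelled cell type could not be checked by the presence of its markers. Of 6 markers of mesenchymal-like lines the differences ran from -0.23 to 1.84, of 6 luminal markers from -0.84 to 0.29, and of 3 blood cell markers from -0.03 to 0.75. The vehicle array stood apart from the other arrays. The SD of its centred values was 0.494, against 0.260 and 0.241 on the estradiol and ERα17p arrays. Spiked RNAs added before labelling differed between estradiol and vehicle by 2.03 (median of 27 probe sets), and hybridisation spikes, added later, were at -0.74 (18 probe sets). The part of these technical differences in the gene results was not tested.

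A difference of 2-fold or more was reached by 779 genes that were higher with estradiol (3.94% of those measured) and by 432 that were lower (2.18%). Of the 599 genes among them with 2 or more probe sets, 521 had all probe sets on the same side of 0. In all, 4727 of the 10523 such genes did (44.9%). The 599 were picked by the median of these same probe sets, which itself favours 1 side, so the contrast is no separate support. A stricter group holds the genes whose every probe set differed by at least 1.5-fold in 1 direction. These were 378 higher genes (3.59% of 10523) and 230 lower ones (2.19%). In most of the 2-fold genes it was the vehicle array that lay away from the reference. The vehicle value was farther from 0 than the estradiol value in 692 of the 779 higher genes (88.8%) and in 413 of the 432 lower ones (95.6%), compared with 59.5% of all genes. Exactly 0 were 7.08%, 8.14% and 8.54% of probe sets on the vehicle, estradiol and ERα17p arrays, so the reference may have been drawn from these arrays. Genes picked by their difference from a vehicle array of wider spread would also lean this way, so these shares are no separate support. Fewer cells of a type and less RNA per cell cannot be told apart in such bulk samples.

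The 20 genes whose probe sets were together highest were led by chains of MHC class II. HLA-DRA, the alpha chain of the MHC class II molecule HLA-DR, was at -3.91 with vehicle, 0.64 with estradiol and 0.20 with ERα17p, a difference from vehicle of 4.56 (23.5-fold). Its 2 probe sets gave 4.43 and 4.68. HLA-DPA1, the matching chain of HLA-DP, stood at -4.07, 0.47 and 0.02 and was 4.29 higher, with 3 probe sets between 4.08 and 4.64. The mesenchymal cadherin CDH11 was 4.11 higher, and its 4 probe sets ranged from 1.91 to 7.04. The disulphide isomerase AGR2, made in secretory epithelia, was at -3.12 with vehicle and 0.20 with estradiol. The superoxide-producing oxidase NOX5 was 2.69 higher, the death ligand TNFSF10, also called TRAIL, 2.76, and the prostaglandin synthase PTGS2 2.64. In PTGS2 the vehicle array was at -1.93 and the treated arrays at 0.70 and 0.82. The decoy receptor TNFRSF11B (1.80), the interferon-induced GTPase GBP2 (2.41) and the phospholipid-binding annexin ANXA4 (2.25) belong to the same 20.

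Among the others of these 20, RAB27B, a GTPase of secretory vesicle docking, was at -2.41 with vehicle and 0.61 with estradiol, 2.87 higher over 3 probe sets. The synaptic vesicle calcium sensor SYT1 was 2.25 higher and the proton pump subunit ATP6V0D2 1.91 higher. The lysosomal chitobiase CTBS was at 1.78, and the membrane protein TMEM156 at 2.11. The remaining 5 of the 20, namely SH3BGRL (2.48), the proteasome subunit PSMD10 (2.25), the endoplasmic reticulum contact protein MOSPD2 (1.87), the kinase RPS6KA3 (2.18) and KLHL4 (1.94), all lie on the X chromosome.

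**Figure D1:**
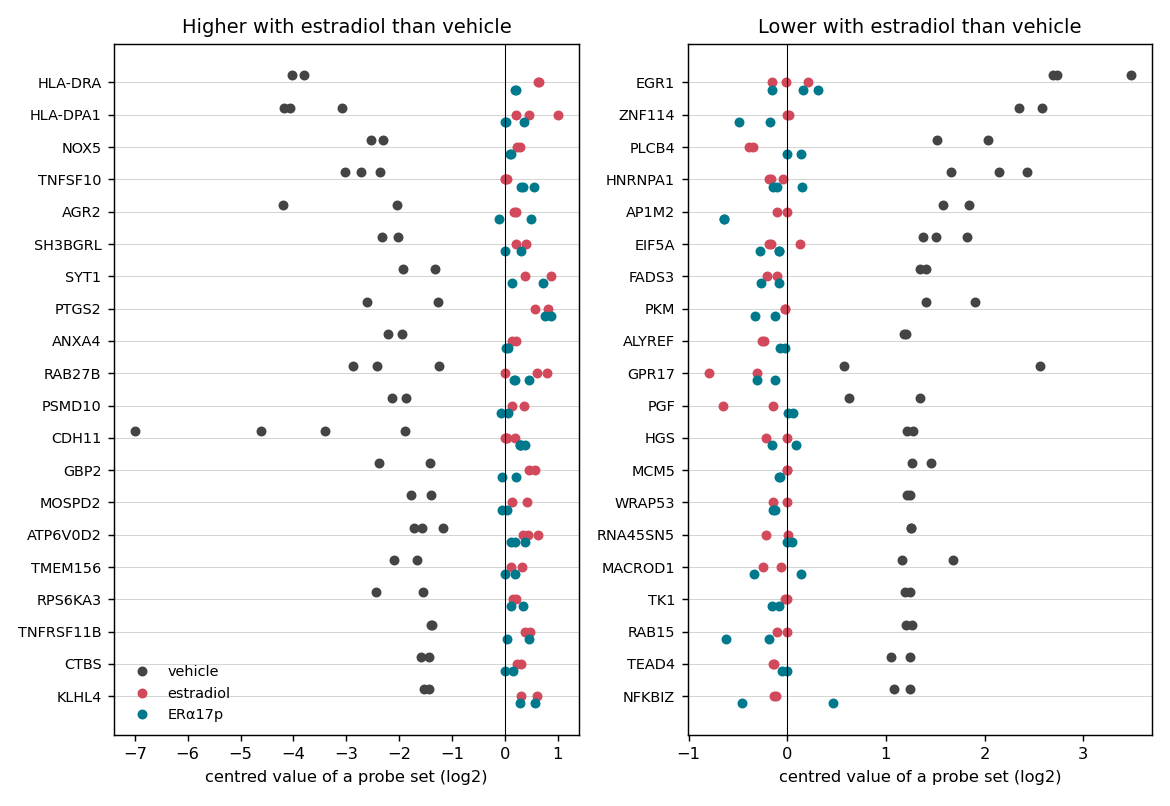
Centred log2 value of every probe set of the 20 genes highest and the 20 lowest with estradiol by agreement of their probe sets, 1 point for each probe set and array (grey vehicle, red estradiol, blue ERα17p). Of 89 probe sets, 76 lay within 0.5 of 0 on the estradiol array (lowest -0.79, highest 1.003), 81 on the ERα17p array (lowest -0.64, highest 0.87) and 0 on the vehicle array, whose points lie to the left for the higher genes and to the right for the lower ones. The genes were picked by their difference from vehicle, so the contrast between arrays is no separate support.

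EGR1, a zinc finger transcription factor induced within minutes by growth factors, led the lower genes. It was at 2.74 with vehicle, -0.01 with estradiol and 0.16 with ERα17p, which put it at -2.89 with probe sets between -3.50 and -2.48. NFKBIZ, an inducible nuclear member of the IκB family, was at 1.16 with vehicle, -0.12 with estradiol and 0.00 with ERα17p. The splicing factor HNRNPA1 was at -2.32 (3 probe sets, -2.62 to -1.71), the translation factor EIF5A at -1.68 (3 probe sets, -1.70 to -1.56) and the mRNA export adaptor ALYREF at -1.44. RNA45SN5, the ribosomal RNA precursor, was at -1.36. HNRNPA1 and EIF5A have near-identical copies elsewhere in the genome and the ribosomal RNA genes are repeated, so their probe sets may read more than 1 locus.

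The glycolytic enzyme PKM was at 1.66 with vehicle and -0.02 with estradiol, a difference of -1.68. MCM5, a subunit of the replicative helicase, was at 1.36 and 0.00, and TK1, the S-phase thymidine kinase, at 1.22 and -0.01. The telomerase factor WRAP53 was at -1.30, the Hippo pathway transcription factor TEAD4 at -1.29 and the placental growth factor PGF at -1.39. The phospholipase PLCB4 was at -2.15, the receptor GPR17 at -2.12, the endosomal sorting protein HGS at -1.35, the clathrin adaptor subunit AP1M2 at -1.76 and RAB15 at -1.29. ZNF114 (-2.46), FADS3 (-1.53) and MACROD1 (-1.57) complete the 20. Of these, 5 lie on chromosome 17 and 0 on the X chromosome.

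The promoter of EGR1 is shown because it led the lower genes and because serum response factor is known to act through its CArG boxes. The run holds the 250 bases before the RefSeq start of the gene, chr5:138465229-138465478 on the plus strand of GRCh38.p14, and the capitals mark the CArG boxes a search found.
EGR1: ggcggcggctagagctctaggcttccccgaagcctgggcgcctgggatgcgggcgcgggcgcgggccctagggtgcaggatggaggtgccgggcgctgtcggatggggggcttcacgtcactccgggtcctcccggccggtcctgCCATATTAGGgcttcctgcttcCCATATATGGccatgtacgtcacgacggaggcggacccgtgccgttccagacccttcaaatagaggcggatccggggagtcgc
The 2 boxes lie at -105 to -96 and -83 to -74 from the start, and read the same motif on both strands. A CArG box was found in 1.14% of 15383 such windows.

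The X chromosome was higher as a whole on the estradiol array. A 1.5-fold difference was passed upward by 246 of its 696 measured genes (35.3%) and downward by 8 (1.15%). On the autosomes 9.71% of 18990 genes were that much higher and 8.68% lower. The median difference was 0.30 on the X chromosome, with quartiles of 0.00 and 0.84, and 0.00 on the autosomes. The X chromosome holds 3.52% of the measured genes and 17.3% of those at least 2-fold higher. Among its 329 genes with 2 or more probe sets, every probe set was at least 1.5-fold higher in 70 (21.3%) and lower in 0. The median X gene was at -0.17 with vehicle, 0.08 with estradiol and 0.06 with ERα17p. Set against the same vehicle array, ERα17p gave a median of 0.26 with 31.0% of genes at least 1.5-fold higher, a value that shares its baseline with estradiol's. On the autosomes 8.49% of genes were that much higher with ERα17p. Directly between the treated arrays the X median was 0.03, and 2.73% of X genes were that much higher with estradiol and 1.72% lower. The autosomes were near these values, with a median of 0.01, 2.01% of genes higher and 1.27% lower. Labelling spikes moved the same way, by 2.03, and hybridisation spikes the other way, at -0.74, and their part in the X result was not tested.

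**Figure D2:**
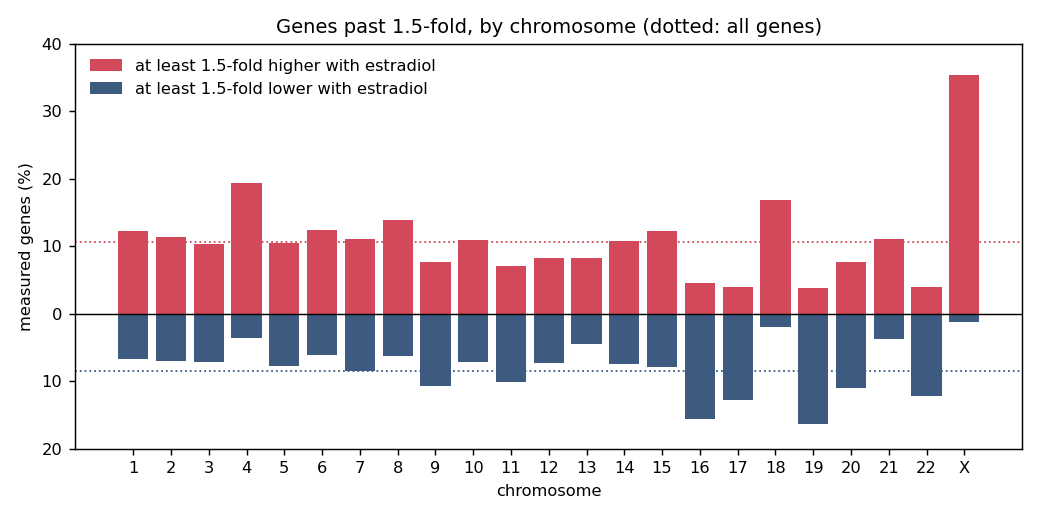
Percent of measured genes at least 1.5-fold higher (red, up) and lower (blue, down) with estradiol than with vehicle, by chromosome, with dotted lines at the values over all genes, 10.6% and 8.42%. The X chromosome stands at 35.3% higher and 1.15% lower, and chromosomes 16 and 19 have the tallest bars downward.

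**Figure D3:**
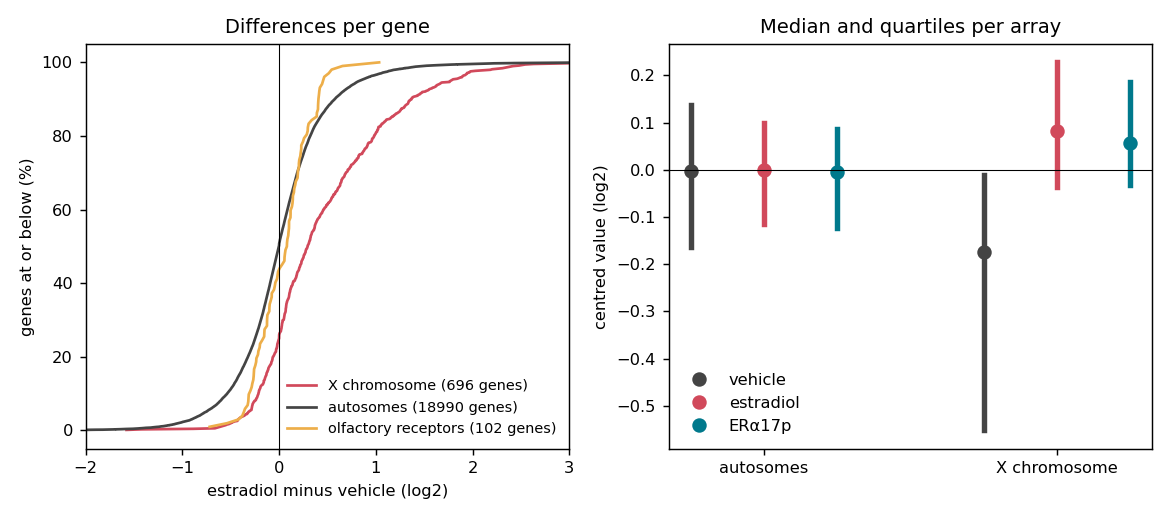
Left, cumulative percent of genes against the log2 difference between estradiol and vehicle, for 696 X chromosome genes, 18990 autosomal genes and 102 olfactory receptors. Right, median (point) and quartiles (bar) of the centred gene values on each array: the X median is at -0.17 with vehicle and at 0.08 and 0.06 with estradiol and ERα17p, and the autosomal medians are at 0.

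The difference ran along the whole X chromosome. In 11 runs of 63 to 64 neighbouring genes, the percent of genes at least 1.5-fold higher ran from 22.2 up to 32 of 64 genes, and no run had more than 2 lower. The run from PIGA to TAB3, on the short arm, had the highest median (0.58), and the run from MAGEA10 to IL9R, at the end of the long arm, the lowest (0.11). After SH3BGRL, PSMD10, RPS6KA3, KLHL4 and MOSPD2, those with the best agreement of probe sets included FMR1, the RNA-binding protein lost in fragile X syndrome, which went from -1.78 with vehicle to 0.11 with estradiol. LAMP2, a lysosomal membrane protein, went from -1.63 to 0.23 over 4 probe sets. The myotubularin phosphatase MTM1 was 1.67 higher, the deubiquitinase USP27X 1.34 and the GTPase RAP2C 1.61. The cytokine receptor CSF2RA, which lies in the region shared with the Y chromosome, was 1.35 higher over 4 probe sets. Of the 8 lower X genes, FTX, a non-coding RNA of the X inactivation centre, is the 1 with 2 probe sets (-1.23 and -0.54). These X genes were chosen after their values were seen, apart from those already among the 20 or named by a list.

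Other chromosomes differed by less, in both directions. Chromosome 18 had a median of 0.16 and chromosome 4 of 0.14, and on chromosome 4 19.4% of 792 genes were at least 1.5-fold higher and 3.54% lower. Low medians were found on chromosomes 19 (-0.14), 16 (-0.13), 22 (-0.12) and 17 (-0.12), and on chromosome 19 3.79% of 1320 genes were higher and 16.3% lower. After quantile normalisation these medians were 0.15 and 0.14 for chromosomes 18 and 4, and -0.13, -0.11, -0.12 and -0.10 for the low ones. Gene length moved with the difference as well. With genes put into 5 equal classes by length, 6.17% of the shortest autosomal genes were past 1.5-fold upward and 11.1% downward, and 11.9% and 4.46% of the longest. X genes were more often higher in each length class, from 27.3% in the shortest to 43.4% in the next to longest. Between the treated arrays the medians of the shortest and longest autosomal classes were 0.02 and 0.00. Neighbouring genes shared a direction as well. Of 1844 higher autosomal genes, 15.8% had a next gene that was also higher, and of 1647 lower ones with a next gene, 16.1% had a lower one, beside 9.71% and 8.68% of all autosomal genes. What part gene length or neighbouring position had in the chromosome differences was not tested.

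The genes of oestrogen receptors, related receptors and GPER1 lay close to vehicle. Of these 6 genes, 0 were at least 1.5-fold higher or lower, where 10.6% and 8.42% of all genes were. A count of 0 in 6 genes is too small to set apart from those shares, and whether these genes were expressed is unknown. ESR1, which encodes ERα, was at 0.00 with vehicle and -0.11 with estradiol, and its 9 probe sets lay between -0.56 and 0.02. ESR2, the gene of ERβ, was at -0.14, with probe sets on both sides of 0 (-0.29 to 0.33). GPER1 was 0.28 higher, with probe sets at 0.15 and 0.41. The related receptors ESRRA, ESRRB and ESRRG were at 0.06, 0.08 and -0.29. Among 31 other nuclear receptors 6 were higher and 2 lower, with the orphan receptor NR2C2 at 1.16, its paralogue NR2C1 at 0.90 and the immediate early receptor NR4A3 at -0.60.

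Coregulators, the proteins that receptors recruit to activate or repress genes, split both ways. Of 21 measured, 4 were at least 1.5-fold higher (19.0%) and 3 lower (14.3%), beside 10.6% and 8.42% of all genes. The median was -0.37. It turned to 0.12 without probe sets that can match several transcripts. The coactivators NCOA1 (0.71, 4 probe sets) and NCOA6 (0.61) were on the high side, and the corepressors SAFB2 (-0.80) and PHB1 (-0.65) on the low side. Enzymes that make or break down oestrogens had 7 of 24 members higher and 2 lower, with a median of 0.09 that was -0.01 without the X genes. HSD17B1, which forms estradiol from oestrone, was at 0.65 with vehicle and -0.19 with estradiol, a difference of -0.84. HSD17B4, which oxidises estradiol, was at 0.63, and STS, the X-linked sulphatase that frees stored oestrogens, at 0.64. The aryl hydrocarbon receptor AHR (1.46) and its target CYP1A1 (1.02), each with 1 probe set, were also higher and were chosen after their values were seen.

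Genes on the route from GPER1 through the EGF receptor to MAP kinases were higher in part. Of 26 measured, 10 were at least 1.5-fold higher (38.5%) and 2 lower (7.69%), beside 10.6% and 8.42% of all genes. The median was 0.33. Without the 3 X genes of the list the median was -0.0039, with 7 higher and 2 lower. Among the ligands of the EGF receptor, EREG was 1.15 higher, BTC 1.09 and TGFA 1.02. In EREG the probe sets disagreed in size, at 0.05 and 2.25. TGFA was at -1.15 with vehicle, 0.10 with estradiol and -0.03 with ERα17p. The X-linked RPS6KA3, a ribosomal S6 kinase downstream of ERK, was 2.18 higher. On the other growth factor route, PI3K, AKT and mTOR, 0 of 23 were higher and 3 lower, and the median was -0.20. There TSC2, the brake on mTOR complex 1, was at -0.61. RPS6KB1, a kinase that mTOR complex 1 activates, was 1.496-fold higher and RICTOR, a subunit of mTOR complex 2, 1.4997-fold, both just under the limit, so the count of 0 rests on where the limit lies.

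The 2 HLA lists, of antigen presentation, had the highest medians of the 72 gene lists described here. MHC class II molecules show peptides from the cell's surroundings to helper T cells and are normally restricted to immune cells unless interferon-gamma is present. Of 18 class II and regulator genes 9 were at least 1.5-fold higher and 0 lower (median 0.64). Over all genes, 10.6% were that much higher and 8.42% lower. Besides HLA-DRA and HLA-DPA1, HLA-DPB1 was 1.26 higher with probe sets at 0.07 and 2.46. HLA-DRB1 (2.39) and the peptide-exchange chains HLA-DMB (2.27) and HLA-DMA (2.19), chosen after their values were seen, have 1 probe set each. Class I molecules, which nearly all cells carry, were higher too: 8 of 15 genes for class I and peptide loading were at least 1.5-fold higher and 0 lower (median 0.65). HLA-B was at -1.24 with vehicle, 0.07 with estradiol and 0.10 with ERα17p, with 3 probe sets between 1.30 and 1.37. HLA-C was 0.96 higher, HLA-F 1.09 and HLA-G 0.73. HLA genes are closely alike, and their probe sets may cross-read. Without probe sets ending in _x_at or _s_at, which can match several transcripts, the class II median fell from 0.64 to 0.20 (5 of 15 genes higher, 0 lower) and the class I median from 0.65 to 0.30 (1 of 10 higher, 1 lower). Both then ranked below the list from GPER1 and the EGF receptor to MAP kinases (0.33) and that of COPI and COPII coats (0.30). Over members with 2 or more probe sets complement (0.58) ranked between class I (0.62) and class II (0.55).

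Secreted immune proteins and complement held more higher than lower members. Among 36 chemokines 9 were higher and 0 lower (median 0.19). CXCL8, the neutrophil attractant also called interleukin 8, was at -1.98 with vehicle, 0.66 with estradiol and 0.22 with ERα17p, and its probe sets gave 1.34 and 3.94. CXCL11, a ligand of CXCR3, was at -0.62, 1.25 and 0.09, 1.88 higher, one of the members in which the estradiol array itself lay far above the reference. The mucosal chemokine CCL28 was 1.12 higher. Of 37 interleukin genes 7 were higher (18.9%) and 3 lower (8.11%): IL15 was at 1.82 and IL1B at 1.36, and IL11 at -1.62. The interleukin median of 0.08 was -0.02 over the 12 members with 2 or more probe sets. Complement genes had 5 of 22 higher (22.7%) and 1 lower (median 0.33), led by the membrane regulators CD46 (1.42, 3 probe sets from 1.07 up) and CD55 (1.14, 3 probe sets from 1.04 up), which protect cells from complement. Without probe sets ending in _x_at or _s_at the complement median was 0.13, with 3 of 17 higher and 1 lower. Cystatins, inhibitors of cysteine proteases, had 4 of 12 higher (33.3%) and 0 lower (median 0.27). The largest differences, in CST1 (4.58), CST2 (3.37) and CST4 (3.33), rest on 1 probe set each. Of the 4 members with 2 or more probe sets, 0 had every probe set at least 1.5-fold higher, and CST11 was at -0.18. Metallothioneins, zinc-binding proteins, were at a median of 0.30 with 0 of 9 past 1.5-fold, and in some the vehicle array lay at the reference. MT1G went from 0.00 to 0.40 and MT1X from 0.00 to 0.25, with the ERα17p array at -0.02 and -0.04.

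CXCL1, a neutrophil-attracting chemokine read by 1 probe set, was at -2.66 with vehicle and 0.33 with estradiol (difference 2.99), and was chosen after its values were seen. Its promoter is printed because CXCL1 is a textbook target of NF-κB. It covers the 250 bases before the start, chr4:73869143-73869392 on the plus strand of GRCh38.p14, and the capitals mark the NF-kB site found, matched on both strands by overlapping windows at -79 to -70 and -78 to -69.
CXCL1: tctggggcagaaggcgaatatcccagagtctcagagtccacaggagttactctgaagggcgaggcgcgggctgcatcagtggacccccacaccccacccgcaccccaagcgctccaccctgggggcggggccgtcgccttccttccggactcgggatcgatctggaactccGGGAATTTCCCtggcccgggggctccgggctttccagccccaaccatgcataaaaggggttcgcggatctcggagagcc
An NF-kB site was found in 11.1% of all 15383 windows, 13.1% of the 626 windows of 2-fold higher genes and 10.7% of the 338 of 2-fold lower genes.

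**Figure D4:**
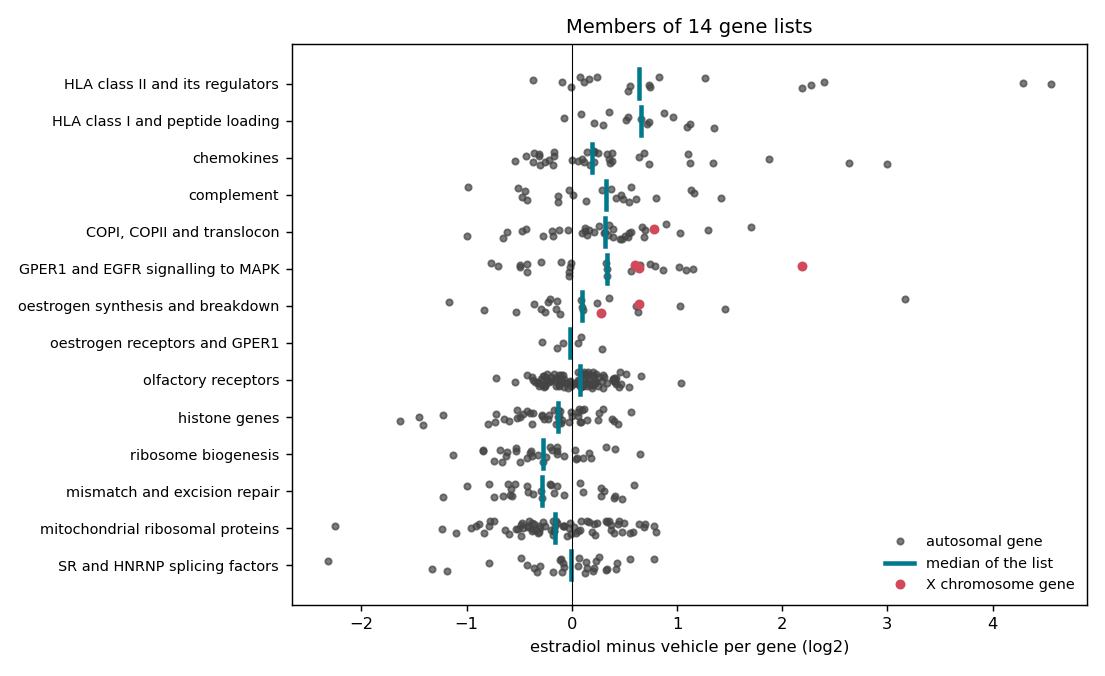
Log2 difference between estradiol and vehicle for each measured member of 14 gene lists, 1 point a gene, X chromosome genes in red, with a bar at the list's median. HLA class I and class II members lie mostly to the right, with medians of 0.65 and 0.64, and the 102 olfactory receptors cluster around 0.08.

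Coat proteins of the secretory route and autophagy genes lay on the high side by smaller amounts. COPI and COPII coats and the translocon act in protein traffic at the endoplasmic reticulum and Golgi. Of 37 of their genes 8 were at least 1.5-fold higher (21.6%) and 3 lower (8.11%), beside 10.6% and 8.42% of all genes. The median was 0.32, and 0.31 without the X gene. The inner coat subunits SEC23A and SEC23B were at 1.30 and 0.89 and the outer coat subunit SEC31A at 0.70. In each the vehicle array was below the reference, at -1.14, -0.44 and -0.65. RAB GTPases, which address vesicles, had 12 of 57 higher and 3 lower, but a median of 0.01. Besides RAB27B, RAB4A of recycling endosomes was 0.93 higher over 3 probe sets, and RAB12 was at -0.63. Autophagy genes had 10 of 34 higher and 2 lower (median 0.15), among them the ULK1 complex scaffold RB1CC1 (1.17), the receptor OPTN (1.11) and the phosphoinositide-binding WIPI1 (1.01). Lysosomal genes had 8 of 34 higher and 3 lower, and 5 of 30 and 3 without X genes. Their median of 0.11 was 0.04 without X genes and turned to -0.13 without probe sets ending in _x_at or _s_at. The protease CTSS was at 0.94 and the sulphohydrolase SGSH at -0.87.

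In the proteasome, ubiquitin-specific protease and F-box and KLHL lists, the largest difference among members with 2 or more probe sets in 1 direction belonged to an X gene. Beside the counts here stand 10.6% of all genes at least 1.5-fold higher and 8.42% lower. Of 34 proteasome subunits 5 were higher (14.7%) and 4 lower (11.8%), and their median was -0.03. The X-linked PSMD10 was 2.25 higher, and the autosomal core subunits PSMA1 and PSMB7 were at 0.75 and -1.08. In PSMB7 the probe sets gave -2.09 and -0.06. Ubiquitin-specific proteases, 46 in number, had 7 higher (15.2%) and 5 lower (10.9%), with the X-linked USP27X at 1.34 and USP9X at 1.11. The 4 probe sets of USP9X ran from 0.11 to 1.91. Without the X genes of that list 5 of 41 were higher and 5 lower (12.2% each). The substrate receptors of the F-box and KLHL families had 15 of 90 higher (16.7%) and 6 lower (6.67%). FBXL4 was at 0.99 and KLHL7 at 0.84, beside the X-linked KLHL4. TRIM ubiquitin ligases had 3 of 56 higher and 7 lower.

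**Figure D5:**
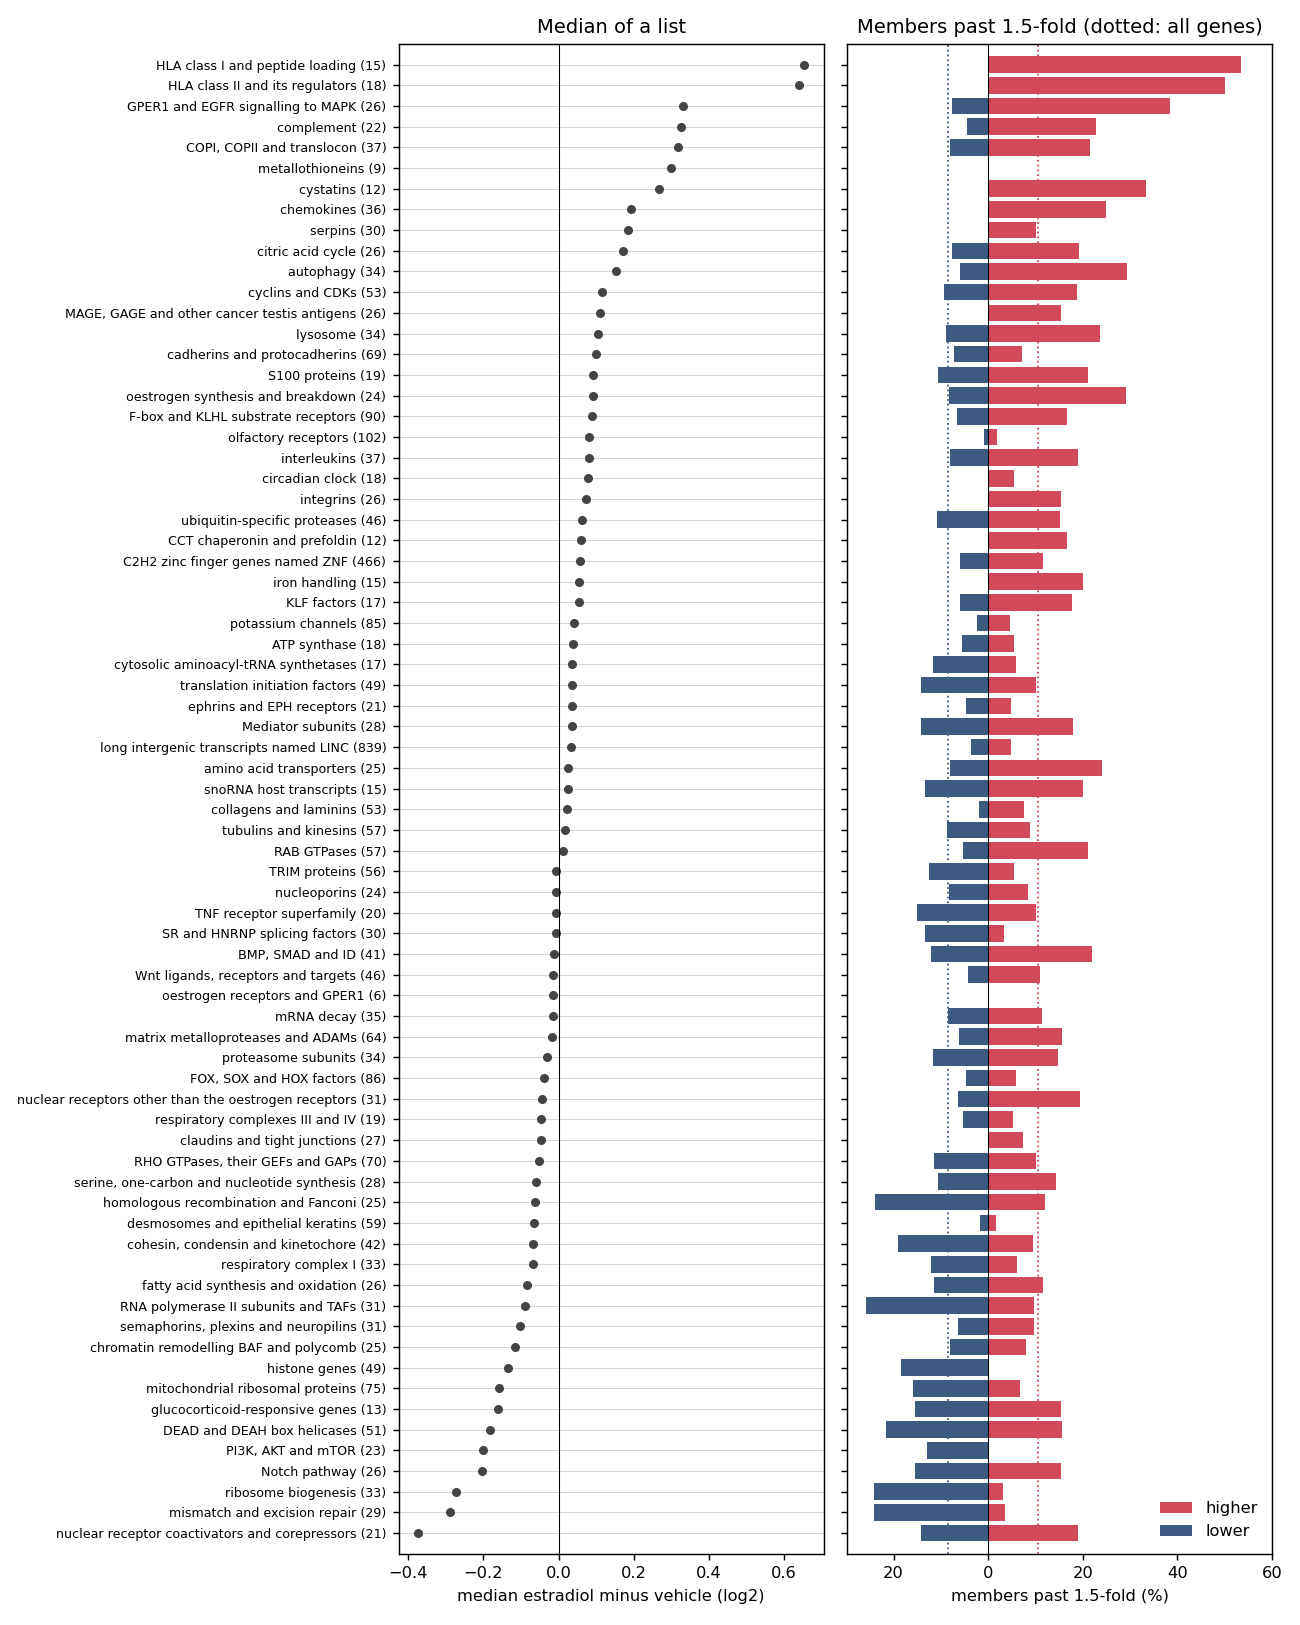
All 72 gene lists with the number of measured members in brackets: left, the median log2 difference between estradiol and vehicle, and right, the percent of members at least 1.5-fold higher (red) or lower (blue), with dotted lines at 10.6% and 8.42% for all genes. HLA class I and class II stand at the top with medians of 0.65 and 0.64, and coregulators at the bottom with -0.37.

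The medians of ribosome biogenesis, of mitochondrial ribosomal proteins and of DEAD and DEAH box helicases lay below 0. In ribosome biogenesis 8 of 33 genes passed 1.5-fold downward and 1 upward, and the median was -0.27. Among its 18 members with 2 or more probe sets 2 were lower (11.1%, beside 8.42% of all genes), in 0 were all probe sets that much lower, and the median was -0.19. MYBBP1A, a nucleolar regulator, was at 0.38 with vehicle and -0.36 with estradiol, and UBTF, the factor that opens ribosomal RNA genes to RNA polymerase I, at 0.66 and 0.00. The processing factors PES1 and WDR12, partners in 1 complex, were at -0.49 and 0.41. Mitochondrial ribosomal proteins had 12 of 75 lower and 5 higher (median -0.16). MRPL52 was at -2.25, though its probe sets gave -3.74 and -0.76, and MRPL4 at -1.10 with 3 probe sets between -1.11 and -1.02. MRPL41 and MRPL12 were at -0.96 and -0.91. DEAD and DEAH box helicases, most of which unwind RNA, had 11 of 51 lower and 8 higher (21.6% and 15.7%, median -0.18). Over all genes, 8.42% were lower and 10.6% higher. With the arrays quantile normalised or scaled to one spread, 9 of the 51 were lower (17.6%) and 4 higher (7.84%). Of autosomal genes, 6.45% were lower and 8.86% higher after quantile normalisation, so the surplus of higher helicases was gone there. The helicases DDX11 (-1.38) and DDX27 (-0.97) were low, and DDX60L (1.06) and DHX15 (0.99) high.

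Splicing, transcription and translation factors were split. Among 30 SR and HNRNP splicing factors 4 were lower (13.3%) and 1 higher (3.33%), and the median was -0.01. The shares of all genes were 8.42% lower and 10.6% higher. Besides HNRNPA1, SRSF6 (-1.33), HNRNPL (-1.18) and HNRNPUL1 (-0.79) had both probe sets low. RNA polymerase II subunits and TAFs had 8 of 31 lower and 3 higher, with POLR2E at 0.91 with vehicle and -0.02 with estradiol, TAF15 at -1.48, TAF3 at -0.97 and POLR2K at 0.95. In TAF15 the 4 probe sets ran from -2.76 to -0.05. After quantile normalisation, and with the arrays scaled to one spread, 3 of the 31 were lower and 3 higher, so that the surplus of lower members was gone. Mediator, the bridge between factors and polymerase, had 5 of 28 higher and 4 lower: MED21 was 1.35 higher over 2 probe sets and the X-linked MED14 0.92, and MED18 and MED16 were at -1.10 and -0.92. The 5 probe sets of MED14 ran from 0.05 to 1.73. In 49 translation initiation factors 5 were higher and 7 lower. The X genes EIF2S3 (1.11) and EIF1AX (1.06) were on the high side, and EIF5A and EIF3B (-1.17, 6 probe sets from -2.02 to -0.66) on the low side. mRNA decay genes had 4 of 35 higher and 3 lower, with the exonucleases XRN1 and XRN2 at 0.77 and 0.79 and SMG5 at -0.93.

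The repair, recombination, chromosome segregation and histone lists held more lower than higher members, but in 3 of these 4 the median turned above 0 over members with 2 or more probe sets. Of all genes, 8.42% were lower and 10.6% higher. Mismatch and excision repair had 7 of 29 lower (24.1%) and 1 higher (3.45%), with a median of -0.29. Over its 14 members with 2 or more probe sets the median was 0.09, and after quantile normalisation 2 of 29 were lower. ERCC2, a helicase of nucleotide excision repair, was at 1.15 with vehicle and -0.08 with estradiol, and ERCC1, a subunit of the nuclease that cuts the damaged strand in that pathway, at 0.93 and -0.11. FEN1 was at -0.54 and MSH6 at 0.41. Homologous recombination and Fanconi genes had 6 of 25 lower and 3 higher, with a median of -0.06. The 15 members with 2 or more probe sets had 1 lower and 2 higher, with a median of 0.14, among them FANCI at -0.83, BRIP1 at 1.21 and FANCF at 1.15. Cohesin, condensin and kinetochore genes had 8 of 42 lower and 4 higher, with NCAPH2 at -0.77 over 5 probe sets. Histone genes had 9 of 49 lower and 0 higher (median -0.14), but the 10 with 2 or more probe sets had 1 lower, none with every probe set past 1.5-fold, and a median of 0.10. Cyclins and CDKs had 10 of 53 higher and 5 lower: CCNYL1 (1.30), CDK8 (1.15) and CDK17 (1.12) were high and CDK10 (-1.21, 3 probe sets) low.

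The promoter of MCM7, another helicase subunit beside MCM5, is shown because E2F factors are known to drive MCM genes. MCM7 was at 1.08 with vehicle and -0.11 with estradiol, a difference of -1.19, and was chosen after its values were seen. The 250 bases before its start lie at chr7:100101398-100101647 and are read on the minus strand of GRCh38.p14. The capitals mark the match to TTTCCCGC on the opposite strand, at -187 to -180.
MCM7: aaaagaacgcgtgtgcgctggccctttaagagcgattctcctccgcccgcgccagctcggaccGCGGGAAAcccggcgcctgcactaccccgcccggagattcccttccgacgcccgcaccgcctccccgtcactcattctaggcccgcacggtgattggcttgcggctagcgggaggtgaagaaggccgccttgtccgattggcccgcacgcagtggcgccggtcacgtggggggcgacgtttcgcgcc
TTTCCCGC, searched on both strands, was found in 1.86% of all windows, 1.44% of those of 2-fold higher genes and 2.37% of those of 2-fold lower genes. The related TTTGGCGC was found in 0.683%, 0% and 1.78%.

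A full palindromic oestrogen response element was present in 4 of the 15383 upstream windows, in 0 of the 626 of 2-fold higher genes and in 0 of the 338 of 2-fold lower genes. A single arm of it, AGGTCA, was present in 10.1% of all windows, 8.31% of the higher and 9.17% of the lower genes. It was present in 9.60% of 594 windows of X chromosome genes. A cAMP response element, TGACGTCA, was found in 2.38% of all windows, 1.44% of the higher and 4.73% of the lower genes. Windows were at hand for 77.8% of measured genes, 80.4% of the higher and 78.2% of the lower ones, and oestrogen receptors often bind far from promoters, so these counts describe only the windows searched.

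In metabolism the list medians were small, from -0.08 to 0.17, while genes named here differed by up to 3.4-fold. Beside the counts here and at the cell surface stand 10.6% of all genes higher and 8.42% lower. Citric acid cycle and pyruvate dehydrogenase genes had 5 of 26 higher (19.2%) and 2 lower (7.69%), with a median of 0.17. With the arrays quantile normalised or scaled to one spread, 2 of the 26 were higher and 2 lower (7.69% each). Without the X genes 3 of 23 were higher (13.0%) and 2 lower. The X-linked kinase PDK3, which switches pyruvate dehydrogenase off, was at -1.35 with vehicle and 0.41 with estradiol over 5 probe sets, and the autosomal subunit DLD was at 0.68. IDH3B was at -1.13 with 3 probe sets between -1.14 and -1.09. In fatty acid metabolism 3 of 26 were higher and 3 lower (11.5% each), near the shares of all genes, with the acyl-CoA synthetases ACSL1 and ACSL5 at 1.42 and 0.93 and the desaturase SCD at 0.91 over 4 probe sets. PSAT1 of serine synthesis was 1.61 higher, and the X-linked PRPS1 and PRPS2 of nucleotide synthesis 1.03 and 0.77. Amino acid transporters had 6 of 25 higher (24.0%) and 2 lower. The glutamate carrier SLC1A3 went from -0.25 to 0.90, and SLC38A4 and SLC38A2 were 1.59 and 1.06 higher. Of 33 complex I genes 2 were higher (6.06%) and 4 lower (12.1%), with NDUFA11 at -1.10 and NDUFS7 at -0.79. The X-linked COX7B of complex IV was at 1.06 and the ATP synthase subunit ATP5F1D at -1.23.

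At the cell surface, 4 of 26 integrins (15.4%) were at least 1.5-fold higher and 0 lower. ITGA2, a collagen receptor chain, was at -1.42 with vehicle and 0.22 with estradiol, and ITGA6, a laminin receptor chain, at -0.67 and 0.13. Metalloproteases and ADAMs had 10 of 64 higher (15.6%) and 4 lower (6.25%), with the sheddases ADAM10 at 1.28 and ADAM9 at 1.06. The 3 probe sets of ADAM10 ran from 0.50 to 3.01. Collagens and laminins had 4 of 53 higher (7.55%) and 1 lower (1.89%), with LAMC1 at 0.99 and COL4A2 at -1.02. Of 69 cadherins and protocadherins 5 were higher, CDH11 among them, and 5 lower (7.25% each), near the shares of all genes, and their differences ran down to -1.43. The guidance factor SEMA3A was 1.56 higher over 3 probe sets. Notch genes had a median of -0.20 with 4 of 26 higher and 4 lower (15.4% each), and those with all probe sets on 1 side of 0 included the receptor NOTCH2 (1.29) and the coactivator MAML2 (1.20) on the high side and the ligand JAG2 (-0.61) on the low side. BMP, SMAD and ID genes had 9 of 41 higher and 5 lower (12.2%), both above the shares of all genes, with the ligand BMP2 at 1.27, the receptor TGFBR2 at 1.08 and ID2, an inhibitor of differentiation factors, at -1.58. The Wnt receptors FZD1 and FZD7 were at 0.83 and 0.77 and FZD2 at -1.30.

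Olfactory receptors, which sense odours and are silent in most tissues, gave few differences. Of 102 olfactory receptors 2 were at least 1.5-fold higher and 1 lower, of 85 potassium channel genes 4 and 2, and of 59 desmosome and epithelial keratin genes 1 and 1. Among 839 long intergenic transcripts 40 were higher (4.77%) and 30 lower (3.58%), beside 10.6% and 8.42% of all genes. The 466 genes named ZNF were nearer those shares, with 54 higher (11.6%) and 28 lower (6.01%). Probe sets without a gene symbol were more often lower, controls left out: of 11721, 5.49% were at least 1.5-fold higher and 16.1% lower, against 14.1% and 11.4% of the 41091 with 1 symbol. Of the 72 lists 7 had a median of at least 0.20, 5 of -0.20 or below, and 60 between. Cancer testis antigens, all X-linked in this list, had 4 of 26 higher (15.4%) and 0 lower, beside 35.3% and 1.15% of all X genes. SSX1 (1.58) had the largest difference among those with 2 or more probe sets in 1 direction.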

How the data were processed

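Total RNA was measured on HG-U133 Plus 2 arrays from Affymetrix, which hold 54675 probe sets. The deposited values were made with RMA, per the submitters' processing notes, and are taken as log2 because RMA gives that scale. The authors had also centred each probe set, and every array had a median of 0. No detection call or level can be recovered, and having 1 array a group sets the precision.

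Probe sets with 1 symbol (41097) were used, and those with several (1801) or none (11777) were not assigned to genes. Entrez identifiers of 41043 probe sets matched the RefSeq gene table of GRCh38.p14, which gave chromosomes, gene order and lengths. Promoters are RefSeq's.

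Differences were computed with Python 3.11.15, numpy 2.4.6 and pandas 2.3.3. A gene was called at 2-fold and a list member at 1.5-fold, a log2 difference of 0.585. An array value of a gene is its own median over probe sets, so printed array values need not subtract to the printed difference. Named genes were the 20 higher and 20 lower whose probe set nearest 0 was largest among genes with 2 or more probe sets in 1 direction, up to 4 members a list by the largest difference among such members, filled with others where fewer than 2 qualified, and the oestrogen receptors. The members and lists were chosen with earlier results of these data known. Alternatives were quantile normalisation, arrays scaled to one spread, the mean of probe sets, leaving out probe sets ending in _x_at or _s_at, the reference in place of vehicle, other fold limits, lists with only members of 2 or more probe sets and, added after seeing the data, leaving out X genes. The calculations were also tested on simulated data.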

Additional observations from a re-analysis of the deposited data

How the results depend on the processing

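With 1 array a group, no result has a replicate check. No paired analysis was possible because each group holds 1 array and no test was run. The main counts were 779 genes higher and 432 lower, and 378 and 230 with agreeing probe sets. Quantile normalisation gave 514 higher and 196 lower, and 308 and 128 with agreeing probe sets. Arrays scaled to one spread gave 524 higher and 189 lower, and 292 and 139 with agreeing probe sets. Without probe sets ending in _x_at or _s_at, 203 and 121 had agreeing probe sets. A limit of 1.5-fold gave 2104 and 1665, and every probe set past 2-fold 132 and 48. Against the reference in place of vehicle the counts were 29 and 1, and 19 and 2 with agreeing probe sets. The X chromosome then had 3.30% of genes higher and a median of 0.082. The cause was not tested, and the reference is of unknown make-up and may have been drawn from these same arrays. Under the other settings run, namely quantile normalisation, one spread, the mean and no _x_at or _s_at probe sets, the X median stayed between 0.24 and 0.30 and its percent higher between 32.0 and 35.3.

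Some signs turned, and the causes were not tested. The coregulator median was 0.12 without _x_at or _s_at probe sets, the EGFR to MAPK median -0.0039 without X genes, and the repair median 0.091 over members with 2 or more probe sets. Against the reference, ZNF114 was at 0.0069 and ID2 at 0.24. Counting every list, 37 of the 72 medians changed sign under 1 or more settings: 34 of the 60 within 0.20 of 0 and the 3 just given of the 12 farther out. Signal over background is unknown, and genes near the limit of detection could not be set apart.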

Other observations

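Chromosome medians between the treated arrays, which do not use the vehicle array, were narrow: the X chromosome was at 0.03, chromosome 4 at 0.01, chromosome 18 at 0.03, chromosome 16 at 0.02 and chromosome 19 at 0.00. Without X chromosome genes, 644 genes were at least 2-fold higher with estradiol than vehicle and 430 lower, a setting added after the data were seen.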
